A study of Caenorhabditis elegans with 6 samples.

Results

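The chemoreceptor genes described here are the C. elegans genes named sra, srab, srb, srbc, srd, sre, srg, srh, sri, srj, srm, srn, srr, srsx, srt, sru, srv, srw, srx, srxa, srz or str followed by a number, in as far as their summed counts over the 6 libraries reached 30. The deposited gene table held 1628 genes with such a name in 22 families, out of 46745 genes with a symbol, and 130 of the 1628 (7.99%) reached 30 summed counts and are the members described below. The members were thus chosen by their summed counts and by no other measured value. That sum does not separate the groups by itself, but it favours a gene that is high in at least some library.

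Messenger RNA was sequenced from mixed-stage hermaphrodites (embryos, larvae and adults together) that were grown at 20 °C on plates seeded with OP50, the standard laboratory strain of E. coli used as worm food, until the plates were crowded without being starved. One group was the wild-type laboratory strain N2 (3 libraries) and the other was the mutant plp-1(ok2155) (3 libraries); no other allele, transgene or treatment is named for either group, and the labels do not describe the lesion of ok2155. plp-1 encodes a nucleic acid-binding protein of the Pur-alpha family, and the series title states the purpose as profiling the transcriptome of plp-1 mutants. The series' design text calls the libraries of a group biological replicates, and does not say whether each came from its own culture.

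Worms smell and taste through G-protein-coupled receptors that sit in the ciliated endings of sensory neurons, most of them in the amphid organs of the head. These receptors belong to families that expanded within nematodes, are grouped into the Str, Sra and Srg superfamilies and a set of solo families, and lie largely in tandem arrays on chromosome V. Many are made in 1 or a few of the animal's neurons, so their transcripts are rare in RNA from whole worms. A gene's family is given by its name and says nothing certain of its ligand, which is known for few of them.

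Total counts per library lay between 39331848 and 53486099. The targeted gene matched the labels: plp-1 (chromosome IV, 7633430 to 7634431 on WBcel235) had 18944, 20356 and 12639 counts in wild-type replicates 1 to 3 and only 920, 888 and 959 counts in plp-1(ok2155), with a log2 fold change of -4.17 (adjusted p = 0.00242, edgeR). Marker genes of other tissues and stages varied between libraries, with 0 of the sperm, cuticle, yolk and embryo genes below called by edgeR with group as the single term. DESeq2 called 26 msp, 22 col, 1 embryo and 0 yolk genes higher, beside 3.09% of all genes. With the replicate number as a block, edgeR called 2 msp and 22 col genes higher. At an edgeR p under 0.05 without adjustment, 27 of 27 tested msp and 45 of 120 tested col genes were higher. So were 1 of 6 tested embryo genes and 0 of 6 yolk genes, while 2 col genes were lower. Of all genes, 6.36% were higher and 3.2% lower at that p. The summed level of 35 major sperm protein (msp) genes was 16.1, 8.16 and 32.1 CPM (counts scaled to a common library size) for the wild-type libraries and 185, 211 and 59.4 CPM for the mutant ones, and that of 159 cuticle collagen (col) genes was 6135, 23301 and 21072 CPM against 16915, 15290 and 30353 CPM. The 6 yolk protein (vit) genes summed to 37125, 88053 and 159710 CPM in wild-type and to 64240, 44681 and 94477 CPM in the mutant, and 9 early embryo genes to 10.7, 24.6 and 13.2 CPM against 31.3, 20.8 and 16.1 CPM. The groups did not overlap in the msp sum, and overlapped in the other 3. The part of this mix of stages and tissues in the receptor values below was not tested. In RNA of whole animals, fewer cells of a type and less RNA per cell cannot be told apart.

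Most receptor genes left no trace in these libraries. Of the 1628 genes, 910 (55.9%) had 0 counts in all 6 libraries and 588 had between 1 and 29 summed counts. A count of 0 in all libraries allows a level of up to 0.0106 CPM (3 counts over the 6 libraries; counting error only). Members came from 21 of the 22 families, and srbc was the family without one, since none of its 84 genes reached 30 counts. Among the larger families, sre, srv, srsx, sra and srd had the highest shares of members, with 13 of 56 genes for sre (23.2%), 8 of 35 for srv (22.9%), 9 of 40 for srsx (22.5%), 7 of 39 for sra (17.9%) and 13 of 75 for srd (17.3%). At the other end, srz had 1 member among 105 genes (0.952%), srh 10 among 292 (3.42%) and srw 5 among 145 (3.45%). By superfamily, 25 of 141 Sra genes were members (17.7%), against 56 of 722 Str genes (7.76%), 30 of 381 Srg genes (7.87%) and 19 of 384 solo genes (4.95%).

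**Figure D1:**
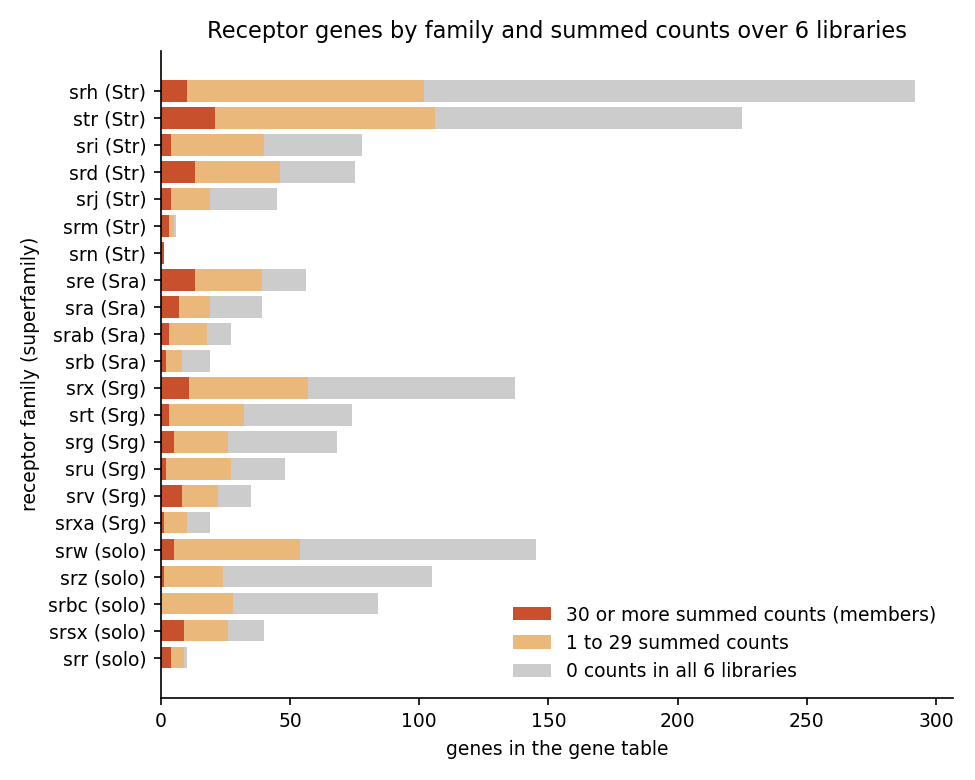
Number of genes (horizontal axis) in each of the 22 receptor families (vertical axis, superfamily in brackets), split into members with 30 or more summed counts over the 6 libraries, genes with 1 to 29, and genes with 0 counts throughout. The grey part, 910 genes in all, is the largest part of most of the big families, and srbc has no member.

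Members and the other receptor genes also differed in annotated features, some of which bear on the counts. Of the 130 members, 66 (50.8%) lay on chromosome V against 1047 of 1498 receptor genes below the threshold (69.9%), while chromosome II held 18.5% and 12.1%, and chromosome IV 18.5% and 11.3%. A protein-coding biotype was given for 127 members; srd-14, srsx-20 and str-224 carried none (2.31%), as did 312 of the genes below the threshold (20.8%). Several annotated transcripts were listed for 29 members (22.3%) and for 105 of the others (7.01%). A gene count was the sum of rounded-up transcript counts, so several transcripts can raise it. The part of this in the difference was not tested. Exonic bases were shared with another gene by 38 of 127 annotated members (29.9%) and by 139 of 1186 others (11.7%), and with a gene on the opposite strand by 32 members (25.2%) and 88 others (7.42%). The kit kept the strand, but no source used here tells whether the counting took it into account, so reads of a member and of an overlapping antisense gene cannot be told apart. How reads were shared among near-identical receptor copies is likewise not given, so the levels of close paralogs are uncertain.

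The members themselves were mostly faint. Their summed counts had a median of 68, 85 of the 130 had fewer than 100, the highest reached 13786. The members held 48640 counts in all, of which sri-40 took 28.3% and the 10 highest members 75.0%. Just inside the threshold, sre-2 had 8, 6 and 0 counts in wild-type and 2, 6 and 8 in the mutant, and str-148 had 22, 3 and 5 against 0, 0 and 0. Just outside it, srm-6, str-180 and str-44 each had 28 summed counts, 50 genes had between 20 and 29, and 24 members had between 30 and 39.

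Levels between genes are compared in FPKM, which divides the fragments of a gene by its length and the library size; here the length was coding length, since all 170 coding transcripts of members had a length that is a multiple of 3. The median member had a mean of 0.230 FPKM over the 6 libraries, against 10.7 FPKM for all 15090 genes that entered the tests; 21 members exceeded 1 FPKM and 3 lay above that median. Those 3 were sri-40 of the Str superfamily, srv-1 of the Srg superfamily and str-176 of the Str superfamily.

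sri-40 (chromosome II, 3178161 to 3180420, forward strand) was the highest member, at 32.7, 45.6 and 34.4 FPKM in wild-type and 63.8, 82.1 and 36.4 FPKM in plp-1(ok2155). The mutant values were higher in replicates 1 and 2, but mutant replicate 3 lay within the wild-type range. The group means were 37.6 ± 6.99 and 60.8 ± 23.0 FPKM (SD, n = 3 each), and the log2 fold change was 0.62 with a standard error of 0.35 (adjusted p = 0.628, edgeR).

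srv-1 (chromosome III, 6851311 to 6852949) followed with 9.61, 25.95 and 18.6 FPKM in wild-type and 8.12, 14.2 and 26.3 FPKM in the mutant. The ranges of the groups nearly coincided, and the log2 fold change was -0.25 (SE 0.56). srv-1 shares 103 exonic bases with zak-1 on the opposite strand. str-176 (chromosome IV, 8461038 to 8463814) had 14.4, 17.9 and 12.3 FPKM in wild-type and 7.25, 11.7 and 17.7 FPKM in the mutant, again with overlapping groups (log2 fold change -0.33, SE 0.38). Its counts came almost wholly (99.8%) from a transcript model of 1623 coding bases, while the shorter model of 1044 bases held 0.172%.

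srsx-34, a solo-family gene on chromosome V (9036493 to 9040272), had one of the narrower ranges relative to its level, at 8.50, 8.53 and 7.53 FPKM in wild-type and 6.15, 8.17 and 11.3 FPKM in the mutant. srr-4 on chromosome V had 12.4, 4.63 and 7.11 FPKM against 2.96, 6.11 and 6.99 FPKM, and srh-237 had 3.18, 6.75 and 6.09 FPKM against 3.57, 11.03 and 3.61 FPKM. In these 3 genes the groups overlapped. In the order of mean level, sri-40 (49.2 FPKM) stood clear of srv-1 (17.1 FPKM), since its lowest library exceeded the highest of srv-1. Each of the next members overlapped with its neighbour in the order, which ran from srv-1 over str-176 (13.6 FPKM), srsx-34 (8.36 FPKM) and srr-4 (6.70 FPKM) to srh-237 (5.70 FPKM).

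4 other high members owed their mean to some of the libraries. srh-2 (chromosome V, 731646 to 734279) had 6.82, 0.566 and 13.1 FPKM in wild-type and 1.45, 0.951 and 0.974 FPKM in the mutant. srr-6 (chromosome V, 5012994 to 5015059), the neighbour of srr-4, had 10.4, 0.208 and 9.79 FPKM in wild-type and 0, 0.299 and 2.305 FPKM in the mutant. srw-86 (chromosome V, 19400379 to 19400700) had 10.3, 0 and 6.07 FPKM in wild-type and was listed at 0 in mutant replicates 1 and 2, with 0.208 FPKM in replicate 3. All 3 were high in wild-type replicates 1 and 3 and low in wild-type replicate 2, which brought that library down to the mutant values. str-144, by contrast, was high in wild-type replicate 2 alone, at 1.52, 6.27 and 1.46 FPKM, and lay at 3.99, 4.94 and 4.95 FPKM in the mutant. For srh-2 the log2 fold change was -2.55 (SE 0.98, adjusted p = 0.444) and for srr-6 it was -2.97 (SE 1.64, adjusted p = 0.625, both edgeR).

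**Figure D2:**
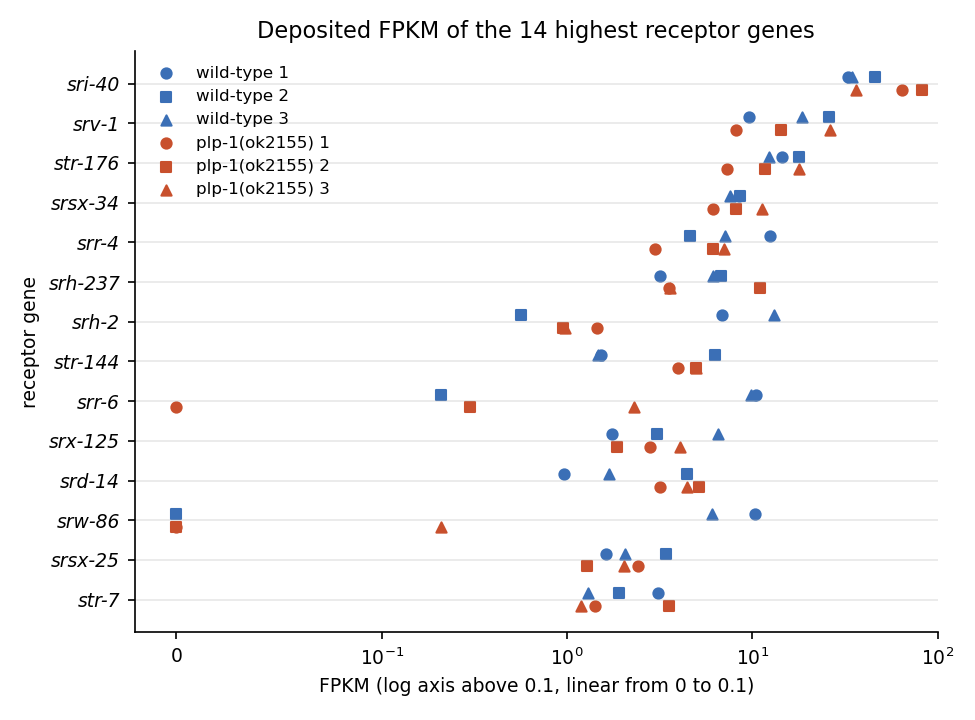
Deposited FPKM (horizontal axis, logarithmic above 0.1 FPKM and linear below) of the 14 members with the highest mean level (vertical axis), with 1 point for each library; blue points are wild-type and red points plp-1(ok2155), and the shape gives the replicate. Groups overlap for each of the 14 genes, and srh-2, srr-6 and srw-86 are spread over a wide range within wild-type, down to 0.566 FPKM or less in replicate 2.

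To compare the groups, all genes of the table were tested in 1 fit, in which a gene had to reach 0.214 CPM in at least 3 libraries to enter. 76 of the 130 members entered and 54 did not; 72 of the 76 had libraries of both groups above this level, while srt-63 and str-171 passed through the wild-type libraries alone, and srw-120 and srx-13 through the mutant libraries alone, so these 4 had to differ. With edgeR's quasi-likelihood test and a Benjamini-Hochberg adjusted p under 0.05, 0 members were higher and 0 lower in plp-1(ok2155), beside 52 of 15090 genes called (0.345%), 0.265% higher and 0.0795% lower. Without adjustment, 3 members were higher and 4 lower at p under 0.05, against 6.36% and 3.2% of all genes. DESeq2 called 1 member higher, srw-120, and 0 lower, beside 3.76% of all genes in either direction (3.09% higher and 0.668% lower). With the replicate number as a block, edgeR called 0 members in either direction beside 1.45% of all genes (1.03% higher and 0.424% lower). With a background of 0.345%, 0 calls among 76 members lie near the rate of all genes. A common biological coefficient of variation of 47.1% also limits what 3 libraries a group can show.

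In terms of direction, 47 of the 76 tested members had a negative log2 fold change (61.8%), against 52.5% of all tested genes, and their median was -0.42 against -0.03. Without the filter on low counts, 90 of all 130 members were negative (69.2%) against 54.6%, with a median of -0.60 against -0.06. The members had been chosen at 30 summed counts, whereas the genes beside them needed only some count. Members that reached 30 through 1 group alone, such as sri-39 and str-148 (wild-type) or srw-120 (mutant), had a sign fixed by that choice. The shares without the filter are thus a description only. The median of the tested members stayed negative when any 1 library was left out, between -0.27 and -0.61. Groups did not overlap in CPM for 12 of the 76 tested members (15.8%), 6 higher and 6 lower in the mutant, beside 14.2% of all tested genes (8.75% higher and 5.49% lower), so their share was near that of other genes. The 12 include srw-120, srx-13, srt-63 and str-171, whose separation was fixed by the filter.

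**Figure D3:**
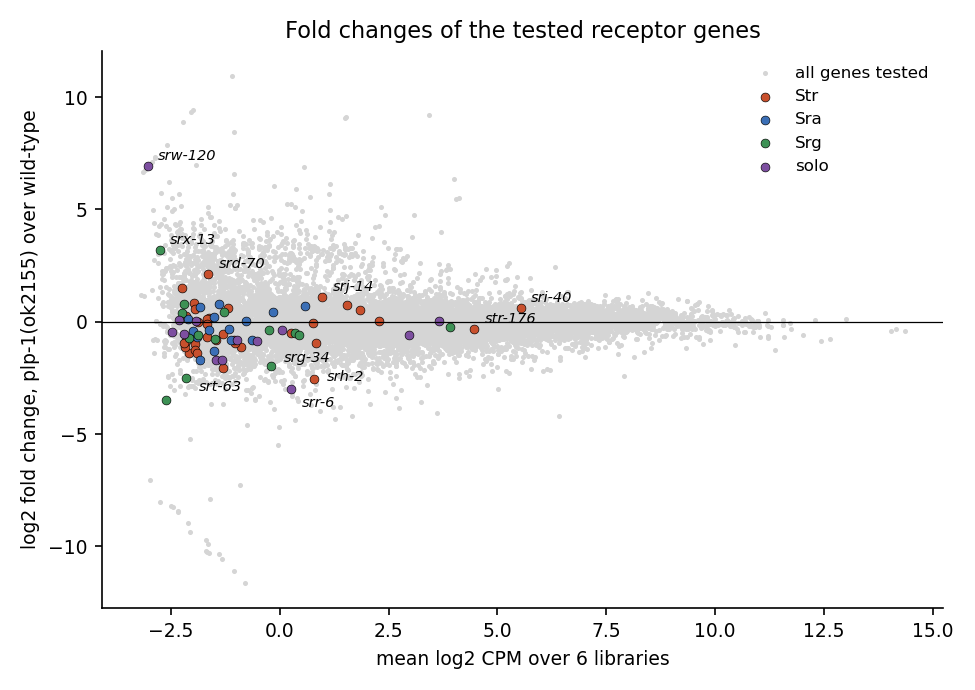
Log2 fold change of plp-1(ok2155) over wild-type (vertical axis) against mean log2 CPM over the 6 libraries (horizontal axis) for the 76 tested members, coloured by superfamily, over all 15090 tested genes in grey. Most members lie at low CPM, where the grey cloud is widest; 47 of 76 lie below 0, and srw-120 stands highest at 6.93, a fitted value that depends on the prior count since its wild-type counts are 0.

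srw-120, an orphan receptor of the srw family (chromosome V, 2994899 to 2996205, reverse strand), had the smallest p of any member. It entered the test through the mutant libraries alone, so its groups had to differ. It had 0, 0 and 0 counts in wild-type and 12, 23 and 10 counts in plp-1(ok2155), so that every mutant library held reads and no wild-type library did. The mutant mean was 0.321 ± 0.118 CPM (SD, n = 3), at least 15.5-fold above the wild-type limit of 0.0207 CPM (3 counts over the group). Its edgeR p was 0.00108 and its adjusted p 0.105, or 0.0918 with the replicate block, whereas DESeq2 gave an adjusted p of 0.0113.

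srw-120 lies in a run of srw genes with reads in the mutant alone. Between 2984077 and 3010568 on chromosome V (26.5 kb), 12 genes are listed, of which 6 had 0 counts everywhere; the 6 counted ones were srw-139, srw-121, srw-120, srw-125, srw-119 and srw-136. Together these held 0 counts in wild-type and 23, 33 and 35 in the 3 mutant libraries, at least 32.4-fold above the wild-type limit. srw-119 had 4, 2 and 15 mutant counts, srw-125 had 0, 5 and 8, srw-121 had 0, 3 and 2, srw-139 had 5, 0 and 0, and srw-136 had 2, 0 and 0. Each mutant library held reads from 4 of the 6 genes, which were the same 4 in replicates 2 and 3 and included srw-139 and srw-136 in replicate 1 alone. The genes on either side did not show the pattern, with 2, 4 and 0 wild-type and 3, 8 and 4 mutant counts for srh-87, and 3, 0 and 0 against 0, 2 and 0 for srw-135. Of 1108 runs of counted genes with 0 wild-type counts, this was the single one of 5 genes or more; it was singled out after its values were seen, and the run carries no test. Since reads could be shared among similar srw copies, the 6 genes are not independent.

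str-148, at the other end, had 22, 3 and 5 wild-type counts and 0 in each mutant library, at least 8.43-fold lower in the mutant. It lies on chromosome II (1046505 to 1048196) within a run of 25 counted genes over 82.3 kb (968406 to 1050702) that held 6124 wild-type counts and 1 mutant count. Most of the named genes of this run belong to the F-box families fbxb and fbxc, and the other receptor in it, srh-274, had 4 counts in wild-type replicate 3 and none elsewhere. The absence of mutant reads from str-148 was thus shared by the counted genes around it, all but M01D1.12 with its 1 count.

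**Figure D4:**
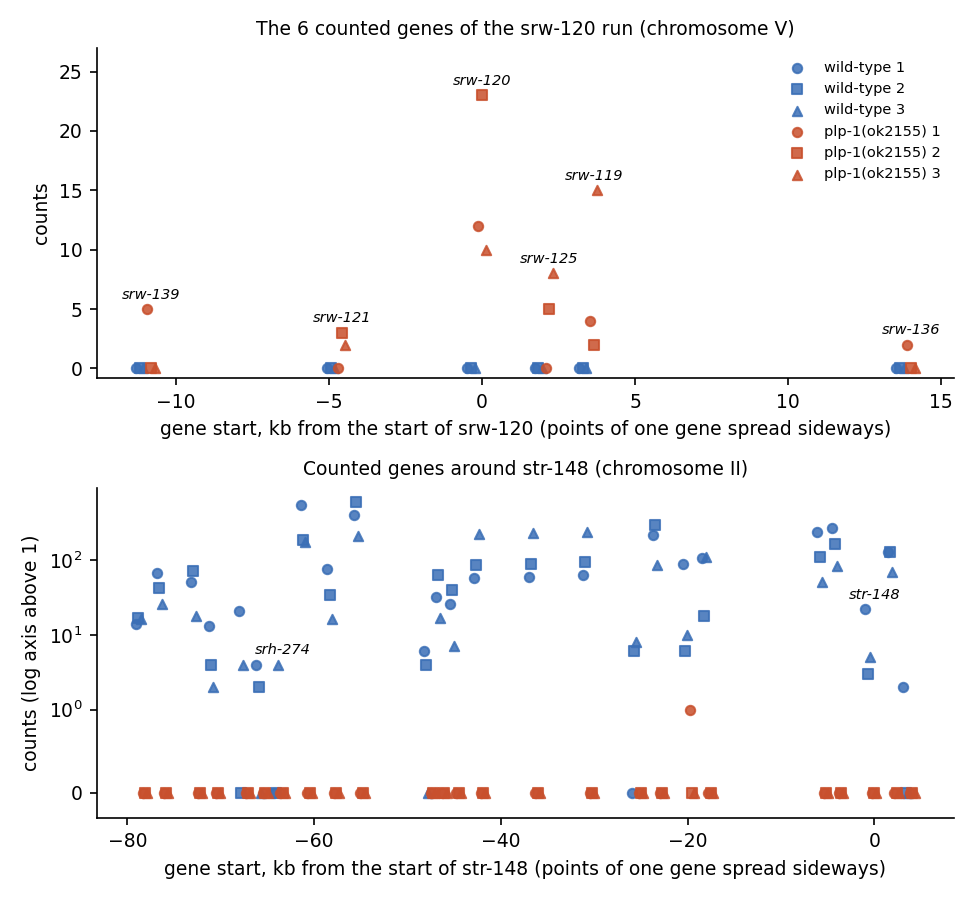
Counts in each library (vertical axis; linear above, logarithmic above 1 count below) of the counted genes in 2 stretches, placed by the distance of their start from that of srw-120 (upper panel) or str-148 (lower panel) in kb. Blue points are wild-type and red points plp-1(ok2155); in the upper panel all wild-type points lie at 0, and in the lower panel all mutant points but 1 do.

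3 further members were at 0 in all mutant libraries, and each rested on 1 or 2 wild-type libraries. sri-39 had 99 counts and srx-117 had 54 counts in wild-type replicate 1, and neither had any elsewhere. srv-16 had 0, 20 and 12 counts in wild-type. None of the 3 entered the test. Within wild-type, sri-39 and srx-117 thus went from their highest value to 0 between replicates.

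Among the other members with the smallest p on the higher side were sri-40, described above, and genes of lower level. srx-13 (chromosome IV, 1114697 to 1118666) had 2, 0 and 2 wild-type and 13, 11 and 14 mutant counts, which do not overlap (log2 fold change 3.19, SE 0.92, adjusted p = 0.245, edgeR). It entered the test through the mutant libraries alone, so this separation was fixed by the filter. It shares 78 exonic bases with C44B12.12 on the opposite strand. srd-70 had 16, 5 and 2 against 18, 25 and 42 counts, with a log2 fold change of 2.12 (SE 0.72, adjusted p = 0.365, edgeR). srj-14 had 125, 40 and 43 against 110, 124 and 161 counts; its CPM did not overlap between groups, although wild-type replicate 1 held more counts than mutant replicate 1. In srj-14, 87.6% of the counts fell to a transcript model of 1966 bases typed as noncoding, and 12.4% to the coding model of 1008 bases. sra-14 had 37, 58 and 58 against 93, 97 and 75 counts, a log2 fold change of 0.72 (SE 0.51). str-262 (log2 fold change 1.48) and srd-65 (0.85) had overlapping groups.

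On the lower side, srg-34 (chromosome V, 18562220 to 18564881) had the smallest p. It had 162, 37 and 63 counts in wild-type and 19, 18 and 23 in the mutant, or 1.73 ± 0.874 against 0.444 ± 0.0993 CPM (SD, n = 3 each), and each mutant library lay below each wild-type one (log2 fold change -1.96, SE 0.58, adjusted p = 0.254, edgeR). srt-63 had 38, 13 and 15 against 5, 1 and 4 counts, also without overlap (log2 fold change -2.52, SE 0.77, adjusted p = 0.276, edgeR). This separation was fixed by the filter, which srt-63 passed through the wild-type libraries alone. srj-29 had 90, 10 and 29 against 8, 9 and 10 counts, where wild-type replicate 2 reached down to the mutant range (log2 fold change -2.05, SE 0.75, adjusted p = 0.408, edgeR). In srg-34 and srj-29 the mutant libraries lay close together and the wild-type ones apart, while in srt-63 the mutant held 10 counts in all. srw-89 (19, 37 and 27 against 3, 9 and 14 counts) had a log2 fold change of -1.68, str-172 of -1.39, str-171 of -1.26 and srd-64 of -1.10, and the last 3 had groups without overlap. For str-171 the filter fixed this, since it passed through the wild-type libraries alone.

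The direction of the tested members, at most 11 in a family, differed from family to family. All 4 tested srr genes were negative, with a median log2 fold change of -0.82, as were 6 of 7 tested sre genes (median -0.68), 7 of 11 str genes (median -0.33) and 4 of 6 srh genes (median -0.30). Of the 5 tested sra genes 4 were positive (median 0.23), and of 9 srd genes 5 were (median 0.13). Summed over the members of a family, CPM did not overlap between the groups in 7 of 21 families, lower in the mutant for sre, srb, srg, srm, srt and srw and higher for srab, and overlapped in the other 14. Among single tested genes 14.2% did not overlap, and no share was computed for sums over other groups of genes. The 7 families are thus a description only. The srb sum holds 2 members, and the srm, srt and srab sums hold 3 each. Within srg, srg-34 made up 2.51, 0.782 and 1.89 of the 3.93, 1.23 and 2.70 CPM in wild-type. Within srw, srw-86 and srw-85 made up 3.99 of 4.55 CPM in wild-type replicate 1 and 2.55 of 3.75 CPM in replicate 3. The 13 sre members, for example, summed to 4.47, 4.44 and 4.44 CPM in wild-type and 2.00, 3.18 and 2.74 CPM in the mutant, and the 3 srab members to 0.898, 1.14 and 1.17 CPM against 1.47, 1.27 and 1.37 CPM. For srg the sums nearly met, with 1.23 CPM in wild-type replicate 2 and 1.22 CPM in mutant replicate 1. The 4 srr members summed to 25.99, 8.41 and 26.5 CPM against 4.93, 8.34 and 12.7 CPM, where wild-type replicate 2 fell among the mutant libraries. By superfamily the medians of the tested members were all negative, at -0.41 for Str, -0.31 for Sra, -0.53 for Srg and -0.55 for the solo families. sru-40, the highest of its family, had 127, 0 and 14 against 0, 0 and 9 counts, and of its counts 44.7% came from a 342-base model. For srz-99, the single srz member, counts were 34, 21 and 61 against 0, 11 and 26 (log2 fold change -1.72, SE 1.15).

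Neighbouring members were common. 42 members lay in 19 groups with less than 50 kb from one member to the next, and 12 of these groups held 1 family. sra-35, sra-32, sra-33 and sra-36 on chromosome II (4524634 to 4540731) summed to 0.960, 1.65 and 1.53 CPM in wild-type and 1.47, 1.45 and 1.54 CPM in the mutant, and all 3 tested genes of the group were positive. srw-86 and srw-85 on chromosome V summed to 3.99, 0.0423 and 2.55 CPM against 0, 0.0595 and 0.0720 CPM. This pair repeated the pattern of srr-6 and srr-4, in which wild-type replicates 1 and 3 were high and replicate 2 was low.

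Receptors with a known ligand or cell were hardly detected at this depth, like most receptor genes. Of all 1628 receptor genes, 55.9% had 0 counts in all libraries and 7.99% were members. Of 25 chosen for a known role or cell, 12 had 0 counts in all libraries, 11 had 1 to 29, and 2 were members, srg-34 and srb-16, which is near those shares. Those at 0 included str-1, a marker of the AWB olfactory neurons, str-2, which marks 1 of the paired AWC neurons, str-3 of the ASI neurons, srh-142 of ADF, srh-220 and srh-234 of ADL, and the pheromone receptor genes srbc-66, srg-36 and srx-43. sra-6, used as a marker of ASH and ASI, had 4, 0 and 4 wild-type counts and none in the mutant, and sra-11 had 10, 3 and 3 against 0, 3 and 0. srb-16 had 23, 27 and 32 against 0, 20 and 15 counts; the groups overlap in CPM, and the log2 fold change was -1.29 (SE 1.04, adjusted p = 0.746, edgeR). odr-10, the diacetyl receptor of the AWA neurons and a str-type gene under another name, had 147, 30 and 18 against 22, 30 and 30 counts, so that wild-type replicate 1 alone stood apart (log2 fold change -0.94, SE 0.66).

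Seen by library, wild-type replicate 1 held the most receptor genes. It was also the deepest library (53486099 counts), and the number of genes with a count depends on depth. At 0.1 CPM or more the numbers were 175, 125 and 152 in wild-type and 117, 129 and 125 in the mutant. Genes with at least 1 count numbered 452, 269 and 263 in wild-type and 285, 335 and 271 in the mutant, and of the members 33, 28 and 26 had their highest CPM in the respective wild-type library, against 8, 15 and 20 in the mutant libraries. The same was not counted over all genes. The member sum was 152, 191 and 202 CPM in wild-type and 143, 181 and 179 CPM in the mutant, or 182 ± 26.2 and 168 ± 21.2 CPM (SD, n = 3 each), a difference smaller than the spread. Without sri-40 it was 125, 142.2 and 162 CPM against 77.2, 105 and 142.4 CPM. sri-40 alone made up 46.2% and 42.2% of the member CPM in mutant replicates 1 and 2, and between 17.9% and 25.4% in the other 4 libraries. Members took 0.0138% to 0.0195% of the counts of a library.

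**Figure D5:**
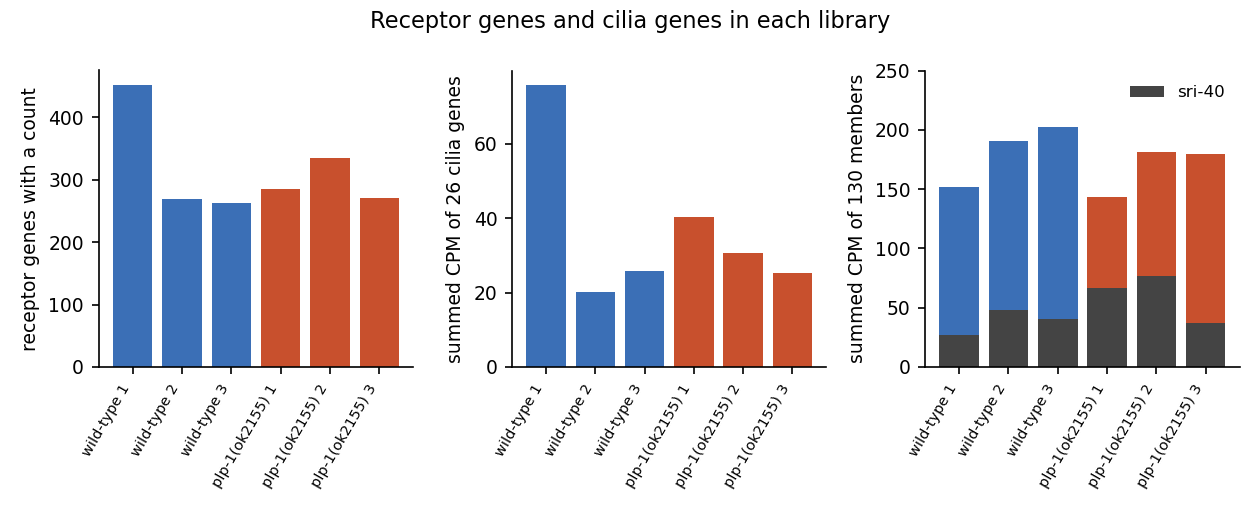
Number of receptor genes with at least 1 count (left), summed CPM of 26 cilia genes (28 without dyf-3 and osm-3, middle) and summed CPM of the 130 members with the sri-40 part in dark grey (right), each by library (horizontal axis). Wild-type replicate 1 is highest in the left and middle panels and, with 152 CPM, lowest of wild-type in the right panel.

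Most genes listed for the ciliated cells that carry these receptors had their highest CPM in wild-type replicate 1. The member sum there, 152 CPM, was the lowest of wild-type. 28 genes of ciliated sensory neurons, which build the cilium and its transport machinery, summed to 81.7, 23.2 and 29.6 CPM in wild-type and 91.6, 74.4 and 53.8 CPM in the mutant, and none was at 0 throughout. 23 of the 28 had their highest CPM in wild-type replicate 1, a share that was not computed over all genes. The median log2 fold change of the 25 tested was -0.96, but 0.34 without wild-type replicate 1. The mutant sums rested on 2 genes: dyf-3, a ciliogenesis gene, had 253, 73 and 51 wild-type against 1757, 1721 and 932 mutant counts and was called higher (log2 fold change 3.77, SE 0.51, adjusted p = 0.0313, edgeR), and osm-3, a kinesin motor of sensory cilia, had 127, 65 and 76 against 551, 481 and 252 counts (log2 fold change 2.31, SE 0.44, adjusted p = 0.0987, or 0.0357 with the replicate block). Without dyf-3 and osm-3 the sums were 75.9, 20.3 and 25.8 against 40.3, 30.7 and 25.4 CPM. Of the 25 tested genes, 19 had a negative log2 fold change and 6 a positive one. The gene with the next smallest p, xbx-1, was lower and did not overlap in CPM between groups. It had 49, 38 and 16 against 6, 9 and 8 counts (log2 fold change -2.01, SE 0.56, adjusted p = 0.217, edgeR). The median of the tested receptor members was -0.42 over 76 members with wild-type replicate 1 and -0.51 over the 86 members tested without it. 16 pan-neuronal genes summed to 339, 234.1 and 319 against 238, 231 and 274 CPM, with a median log2 fold change of -0.34. The part of the neuron content of a library in the receptor values was not tested.

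Genes that carry and relay the receptor signal showed no call. Of 43 genes for receptor traffic and transduction 33 were tested, 0 were called by edgeR or DESeq2, and the median log2 fold change was -0.07. Of all genes, edgeR called 0.345% and DESeq2 3.76%, so 0 calls in a list of this size lie near the rate of all genes. Without adjustment, 6.36% of all genes were higher and 3.2% lower at an edgeR p under 0.05. At an unadjusted p under 0.05, tax-4, a subunit of the cyclic nucleotide-gated channel, was higher (16, 6 and 2 against 21, 18 and 31 counts, log2 fold change 1.78), and the G protein alpha subunit gene gpa-13 was lower (50, 55 and 33 against 14, 24 and 17 counts, log2 fold change -1.28). Of 35 regulators of receptor expression and sensory neuron identity 31 were tested and 0 were called by edgeR or DESeq2, again near the rate of all genes. Their median was -0.31, and 0.22 without wild-type replicate 1. The homeodomain gene unc-42, the single one at an unadjusted p under 0.05, had 191, 19 and 23 against 6, 7 and 16 counts (log2 fold change -2.63), with wild-type replicate 1 far above the rest.

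The members whose pattern over the 6 libraries was most like that of srw-120 were srx-13 (Pearson r of log2 CPM 0.91), srd-70 (0.82), srj-14 (0.77), str-230 (0.73) and sri-5 (0.71). They are given as a description, since all 6 points share the group difference by which srw-120 stands out. Of the 5, str-230 was not among the tested genes and had 6, 5 and 6 wild-type against 23, 12 and 8 mutant counts, without overlap in CPM.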

How the data were processed

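The authors deposited, for 46769 genes and for their transcripts, an estimated count and an FPKM value per library. Libraries were made with a strand-keeping kit for messenger RNA, per the labels' protocols. Per the submitters' processing notes, the tools included the aligners HISAT2 (2.1.0) and Bowtie2 (2.3.4.1), the assembler and quantifier StringTie (1.3.4d), the trimmer Trimmomatic (0.38) and FastQC (0.11.7), with DESeq2 in no stated version. The sources used here do not give their settings or any use of strand in counting. The deposited estimated counts had been rounded up: 100.0% of transcript counts from 1 to 50 lay within 1 above the value that FPKM and length give, so a count of 1 can stand for less. Each gene count equalled the sum of its transcripts. 24 entries without a symbol (0.0024% to 0.0246% of a library) were left out.

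Counts were tested over all genes with edgeR 4.0.16 (R 4.3.3): TMM scaling, filterByExpr with the group (15090 genes), the quasi-likelihood test with group as the single term, and Benjamini-Hochberg adjustment, called under 0.05. P-values measure the spread between 3 libraries a group. CPM used TMM-scaled totals; standard errors were derived from each fold change and the F statistic of its test. Alternatives were RLE and upper-quartile scaling, DESeq2 1.42.0, no filter, a replicate block, each library left out, and member thresholds of 10 and 100. The numerical tests were checked on simulated data, in which only genes well above the level of most members were given a change. Recovery of changes in genes as faint as most members was thus not checked. Same-numbered libraries deviated together (correlations 0.28, 0.21 and 0.36, all above 0.1). The main fit did not use these pairs, so its standard errors and p-values leave them out. The replicate block, one of the alternatives, did use them. It called 1.45% of all genes, against 0.345% in the main fit. Positions are 1-based on WBcel235. Limits at 0 use 3 counts and cover counting error only.

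The members, lists and known receptors were chosen with earlier results of these data known. Chosen for naming were the 8 tested members with the smallest p on each side, the 10 with the highest FPKM and the highest of each family. Receptors with a known role, members at 0 in 1 group, those nearest the threshold and the 5 most like srw-120 were added. So were up to 6 of each list. Not all of these are given above: srab-4, sre-9, srm-3, srn-1 and srxa-10, each the highest of its family, and most list genes were left out. Genes of the 2 runs and of neighbouring groups were named after their values were seen. Of the lists, nsy-5 was not matched. A planned motif search in promoters was not run, and no sequence is shown.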

Additional observations from a re-analysis of the deposited data

How the results depend on the processing

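The counts of 0 members called were the same under all alternatives except DESeq2, which called 1 higher; its fitted log2 fold change for srw-120 was 6.35, against 6.93 in edgeR, neither of them a bound. The count of all genes called was more sensitive: 40 higher and 12 lower became 463 and 100 with DESeq2, 155 and 64 with the replicate block, and 0 to 18 higher and 1 to 5 lower when 1 library was left out, and each of the 6 libraries moved both counts by over 1.5 times. The block changed no call of a member. The median of the tested members was -0.42 in the main fit, and no alternative moved it by as much as the spread between replicates (0.27). It was -0.41 without members that share exonic bases. That alternative was chosen after seeing the data, as were those without sri-40, without dyf-3 and osm-3, and with at least 0.1 CPM. At 0.1 CPM or more, 175, 125 and 152 wild-type and 117, 129 and 125 mutant receptor genes were counted. Of 341 alternatives for the 31 tested members that were chosen for naming, 9 turned the sign, all in 4 members near 0 or with wide groups. With single libraries left out, the log2 fold change of srh-237 (0.05 with all) lay between -0.63 and 0.29, that of srsx-34 (0.03) between -0.32 and 0.19, that of srv-1 (-0.25) between -0.87 and 0.11, and that of srx-125 (-0.58) between -1.0001 and 0.17. srsx-34 was also negative without the filter (-0.0011) and with the replicate block (-0.0068); the cause was not tested. Depth is a limit for the members: 85 of 130 had fewer than 100 counts over 6 libraries.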

Other observations

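Receptor genes below the threshold, which entered no comparison above, held 1558, 553 and 498 counts in wild-type and 656, 850 and 527 in plp-1(ok2155). Wild-type replicate 1 had the most, and was also the deepest library. Their summed level averaged 16.9 ± 6.45 CPM over the wild-type and 14.7 ± 2.11 CPM over the mutant libraries (SD, n = 3 each), a difference smaller than the spread. Among members, wild-type replicate 1 had the fewest at 0 counts (3), and mutant replicate 1 the most (28); the other 4 libraries had between 10 and 17.

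Transcript models of the members varied in what they held. Of the 29 members with several transcripts, 25 drew more than 50% of their counts from 1 model, 6 more than 90%, and in 7 of the 25 that model was not the longest. srh-2 drew 67.5% from a 774-base model, while its longest model, of 1029 bases, held 4.77%; in wild-type replicate 2, where srh-2 was low, the 774-base model had 0 counts.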
